A study of Caenorhabditis elegans with 2 samples.

Results

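The histone genes examined here were all protein-coding genes of *Caenorhabditis elegans* whose symbol is his- followed by a number, counted by gene identifier in the Ensembl annotation of WBcel235. There were 72 of them among 19985 protein-coding genes, and they carried 50 symbols, because 36 genes share 14 symbols with another copy. The promoter window of a gene reached from 1000 bp before an annotated 5' end to 300 bp past it, and a gene counted as having a summit when the summit of a peak fell inside. The peaks were the authors' list of 2568 selected for agreement between replicates by the irreproducible discovery rate (IDR), on genome build ce11. A gene was called clustered when another his- gene lay within 5 kb of it, and solitary otherwise, which gave 67 clustered and 5 solitary genes.

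The peaks come from chromatin immunoprecipitation and sequencing of LSY-2, a C2H2 zinc finger transcription factor, in mixed-stage embryos. The animals were of strain OP367, which carries unc-119(tm4063) III and wgIs367, an insertion that supplies LSY-2 tagged with eGFP, a green fluorescent protein. All samples form 1 group with 2 biological replicates, whole embryos pooled from males and females at an unknown age, and there was no group to compare them with. The promoter of the insertion, and whether untagged LSY-2 remained, are not stated in the labels. Whole embryos of many stages were mixed, so binding in a few cells and weak binding in all cells cannot be told apart.

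Histones are the proteins that DNA is wrapped around in nucleosomes, each made of the core histones H2A, H2B, H3 and H4, with linker histone H1 outside. Core histones are needed in bulk when DNA is replicated, and in animals the genes for them lie in many copies, often as head-to-head pairs that share the sequence between them. Replication-dependent histone mRNAs end in a stem-loop instead of a poly(A) tail, whereas variant histones such as H3.3 are made through the whole cell cycle and are usually encoded by single genes.

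LSY-2 summits lay at 14 of the 72 histone genes (19.4%), against 12.6% of all protein-coding genes. These 14 genes rested on only 9 distinct peaks, because 5 peaks lay between head-to-head genes and counted for both. The 5 shared peaks belonged to the pairs *his-67* and *his-68*, *his-31* and *his-32*, *his-61* and *his-62*, *his-3* and *his-4*, and *his-59* and *his-60*. The other 4 peaks lay at *his-37*, an H4 gene, at *his-72* and *his-74*, both H3.3 genes, and at *his-24*, the linker histone H1 gene among the members. With the stronger 1284 of the IDR peaks, 8 members were left, against 7.35% of all genes, among them 7 clustered genes and 1 solitary gene, *his-74*. A shorter promoter window kept all 14, against 10.4%, and without summits in soft-masked sequence 13 were left, against 10.2%. No test was made, since genes that share a peak are not independent and the members were chosen with earlier results of these data known.

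The sequence at these summits is shown first because 7 of the 9 peaks hold the same box of 10 bases, GTCCCNGCAG, searched on both strands. It was the pattern of 5 bases, any base and 4 bases that the most histone peaks held, the next best being in 6 peaks. Because it was chosen from these peaks, its presence in them is a description. Each run covers 75 bp on either side of the summit of 1 peak, read 5' to 3' from the RefSeq copy of WBcel235, with matches of the box in capitals. The runs are chrV:9546935-9547085 and chrX:14489977-14490127 on the plus strand for *his-37* and *his-24*, chrV:16040561-16040711 on the minus strand for *his-3* and *his-4*, chrIV:7488051-7488201 on the minus strand for *his-59* and *his-60*, and chrIV:8334065-8334215 on the plus strand for *his-31* and *his-32*. They hold 1 match each.
his-37: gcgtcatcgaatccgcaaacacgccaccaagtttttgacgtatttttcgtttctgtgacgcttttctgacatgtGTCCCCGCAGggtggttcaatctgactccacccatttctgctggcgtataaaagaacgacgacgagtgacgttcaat
his-24: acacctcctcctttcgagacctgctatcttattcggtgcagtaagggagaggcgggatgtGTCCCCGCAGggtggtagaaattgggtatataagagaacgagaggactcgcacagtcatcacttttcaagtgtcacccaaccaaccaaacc
his-3/his-4: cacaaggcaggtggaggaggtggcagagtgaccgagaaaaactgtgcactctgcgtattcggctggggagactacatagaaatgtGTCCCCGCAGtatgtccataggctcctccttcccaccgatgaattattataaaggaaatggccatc
his-59/his-60: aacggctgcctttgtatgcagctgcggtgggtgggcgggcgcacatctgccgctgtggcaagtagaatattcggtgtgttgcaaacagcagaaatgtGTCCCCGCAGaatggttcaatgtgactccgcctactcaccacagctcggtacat
his-31/his-32: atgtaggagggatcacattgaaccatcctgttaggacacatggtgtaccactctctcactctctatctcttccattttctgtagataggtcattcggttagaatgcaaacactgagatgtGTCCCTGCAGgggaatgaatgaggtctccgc

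The run for *his-61* and *his-62*, chrIV:7486304-7486454 on the minus strand, has a match near its 3' end, and a further match in the peak is cut off by the 5' end of the run and so is not in capitals. The runs for *his-72*, chrIII:12369116-12369266, and *his-74*, chrV:12660511-12660661, both on the minus strand along the gene, hold none and are shown for contrast.
his-61/his-62: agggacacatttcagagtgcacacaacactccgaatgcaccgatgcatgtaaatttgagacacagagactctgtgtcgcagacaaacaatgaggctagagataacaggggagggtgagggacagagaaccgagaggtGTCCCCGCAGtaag
his-72: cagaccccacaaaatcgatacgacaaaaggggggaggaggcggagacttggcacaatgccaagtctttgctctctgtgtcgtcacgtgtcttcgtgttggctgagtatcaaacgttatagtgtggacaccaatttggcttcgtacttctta
his-74: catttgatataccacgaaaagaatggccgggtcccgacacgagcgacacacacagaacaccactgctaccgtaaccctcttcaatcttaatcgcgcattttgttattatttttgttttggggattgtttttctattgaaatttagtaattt

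The matches lay close to the summits. The middle of the nearest match was 3.5 bp from the summit at *his-37*, 5.5 bp at *his-67* and *his-68*, 10.5 bp at *his-24* and 14.5 bp at *his-3* and *his-4*. It was 26.5 bp away at *his-59* and *his-60*, 49.5 bp at *his-31* and *his-32*, and 66.5 bp at *his-61* and *his-62*, where the summit lay between 2 matches. The peak of *his-67* and *his-68* held 3 matches, the most of the 9 peaks.

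**Figure D1:**
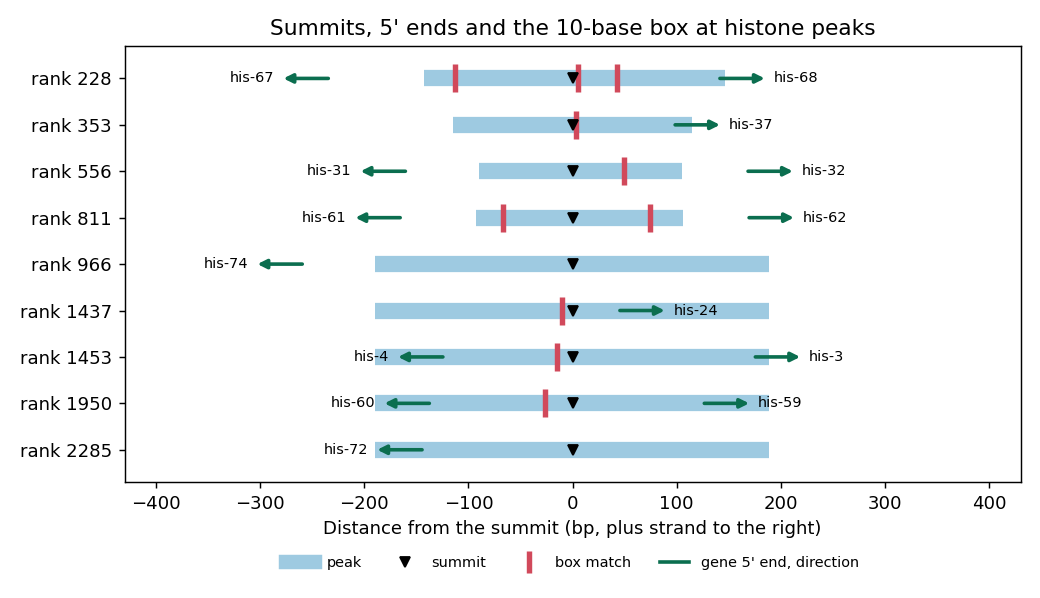
Peaks (blue), summits (triangles), matches of the 10-base box (red) and gene 5' ends (green arrows, pointing along the gene) for the 9 histone peaks, by distance from the summit in bp, with the rank of each peak in the IDR list at the left. In 7 peaks a match lies within 66.5 bp of the summit, and the peaks of *his-74* (rank 966) and *his-72* (rank 2285) have none.

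Across the genome the box was rare. It matched 203 times, and 15 of these matches lay in IDR peaks, 10 of them in histone peaks. Of the other 2559 IDR peaks, 4 held a match, and 1 of those lay in a promoter window, that of *chd-7* (rank 1083). In the 400 bp upstream of the outermost 5' end, 43 of 19973 nuclear protein-coding genes had a match (0.215%), and 30 of these were histone genes. Among the 13 others was *hil-2*, a linker histone gene, which had no IDR summit. None of the 13 had one, against 12.6% of all protein-coding genes, but 13 genes are few. Within 1000 bp upstream, 36 genes other than histone members had a match, and 3 of these had a summit. A match does not show that LSY-2 or any other factor binds there.

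The strongest histone peak lay between *his-67*, an H4 gene, and *his-68*, an H2A gene, on chromosome I from 9988851 to 9989140. Its signal, the authors' own value, was 258 in the IDR and pooled lists, 125 in replicate 1 and 129.9 in replicate 2. It ranked 228 by signal in the IDR list and 226 in both replicates, so the replicates placed it alike. The summit also fell in the window of *alg-5*, an Argonaute gene, but *his-68* was the nearest gene, at 138 bp.

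The peak at *his-37* spanned 9546895 to 9547125 on chromosome V, with its summit 95 bp upstream of the 5' end. Its signal was 144 in the IDR list, 56.8 in replicate 1 and 86.6 in replicate 2, with ranks of 353, 498 and 305. *his-37* encodes H4 but differs from most H4 genes here in having an annotated 5' untranslated stretch, no partner in head-to-head orientation, and no 3' stem-loop found downstream of its stop codon. Its cluster neighbours *his-35* (H2A) and *his-41* (H2B) had no IDR summit in their windows. Their best entry in the pooled list, which holds 30000 peaks and background entries, ranked 4637, outside the 2568.

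Chromosome IV held 3 histone peaks at head-to-head pairs. The peak between *his-31* (H4) and *his-32* (H3), from 8334050 to 8334245, had signals of 98.8 in the IDR list, 47.5 in replicate 1 and 49.4 in replicate 2. The peak between *his-61* (H2A) and *his-62* (H2B), from 7486286 to 7486485, had signals of 76.0, 34.5 and 38.0. Beside that pair, within the same cluster, the peak between *his-60* (H4) and *his-59* (H3), from 7487936 to 7488315, had signals of 41.9, 21.4 and 22.3. This was the only cluster of more than 2 genes in which every gene had a summit, and its 4 genes are 1 each of H2A, H2B, H3 and H4.

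On chromosome V the peak between *his-4* (H2B) and *his-3* (H2A), from 16040446 to 16040825, had the largest difference in rank between replicates. Its signal was 52.3 in the IDR list, 15.6 in replicate 1 (rank 3254) and 33.2 in replicate 2 (rank 1050). It was the only histone peak that lay outside the top 2568 of a replicate. The neighbouring pair *his-2* (H3) and *his-1* (H4), in the same cluster, had no IDR or pooled summit, no summit in replicate 1, and in replicate 2 a best rank of 16190.

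Among the solitary genes, *his-24*, *his-72* and *his-74* had a summit, and *his-71* and *his-73* had none. The *his-24* peak (chromosome X, 14489862 to 14490241) had signals of 52.6 in the IDR list, 23.6 in replicate 1 and 22.0 in replicate 2, with the summit 42 bp upstream of the 5' end, the shortest distance of any member. The *his-74* peak (chromosome V, 12660396 to 12660775) had signals of 68.8, 47.2 and 21.5, and ranked 638 in replicate 1 but 1974 in replicate 2. Its summit lay in sequence that RefSeq soft-masks, and also in the window of *ccch-3*. The *his-74* and *his-72* peaks were the ones without the box. The *his-72* peak (chromosome III, 12369001 to 12369380) had signals of 37.0, 25.1 and 17.8, and its IDR rank of 2285 was the lowest of the histone peaks.

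The 9 peaks were of middling strength. Their median rank was 966, against 1290.5 over the 2550 nuclear IDR peaks, and 8 of the 9 lay in the top 2568 of both replicates, against 72.6% of all IDR peaks. In each case a histone gene was the nearest gene. All 14 gene-to-summit distances were upstream, from 42 to 256 bp, with a median of 149 bp. For 64 of the 72 members the annotated 5' end is the first coding base, so these distances run from the start codon for most genes. GC content in the 101 bp around the summit had a median of 49.5% (43.6% to 55.4%), against 46.5% over nuclear IDR peaks.

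**Figure D2:**
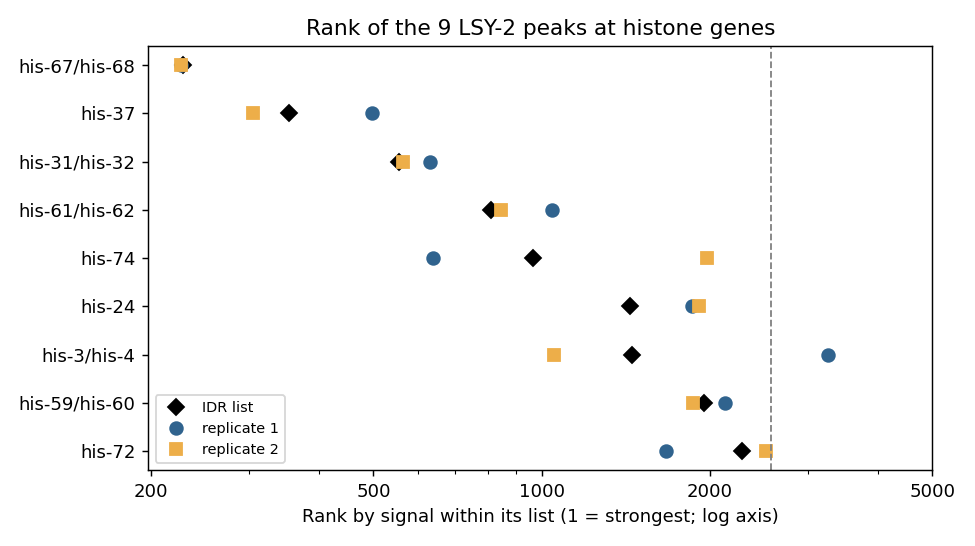
Rank by signal (log axis, 1 is strongest) of the 9 histone peaks in the IDR list (diamonds), replicate 1 (circles) and replicate 2 (squares), with a dashed line at rank 2568. The *his-67* and *his-68* peak has nearly the same rank in each list, and the *his-3* and *his-4* peak crosses the line in replicate 1, at 3254.

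Each class of core histone had members with a summit. A summit was found at 3 of 17 H2A genes, 2 of 16 H2B genes, 2 of 15 replication-type H3 genes and 4 of 16 H4 genes. The shares of H2B (12.5%) and H3 (13.3%) lay near the 12.6% of all protein-coding genes, and those of H2A (17.6%) and H4 (25.0%) rest on 3 and 4 genes. Of the H3.3 genes 2 of 5 had one, *his-72* and *his-74* but not *his-69*, *his-70* or *his-71*, and the H1 gene *his-24* had one. The remaining members, *his-39* and *his-73*, are annotated by RefSeq only as proteins with a histone domain, and neither had a summit. Of 31 head-to-head pairs with at most 1000 bp between them, 5 had a summit, namely 2 of 16 pairs of H2A with H2B, 2 of 14 pairs of H3 with H4, and the H4 and H2A pair *his-67* and *his-68*. The intervals were 227 to 368 bp long with a median of 258 bp. Over all protein-coding genes with a head-to-head neighbour within 1000 bp, 35.2% had a summit, against 10 of the 62 histone genes in such pairs (16.1%). These shares are not matched in copied sequence, which is described below.

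The division into clustered and solitary genes gave unequal shares, which were not tested, with few solitary genes. A summit was found at 11 of 67 clustered genes (16.4%), which rested on 6 peaks, and at 3 of 5 solitary genes (60.0%), with a peak each. Over all protein-coding genes the share was 12.6%, so that of clustered genes lay near the background, and that of solitary genes rests on 5 genes. Of 14 clusters of 2 to 13 genes, 5 held at least 1 peak. Those without included the cluster of 13 genes from *his-16* to *his-42* on chromosome II (13817760 to 13828697) and the clusters on chromosome V from *his-50* to *his-51* (8847393 to 8854053) and from *his-50* to *his-18* (8889488 to 8898539).

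**Figure D3:**
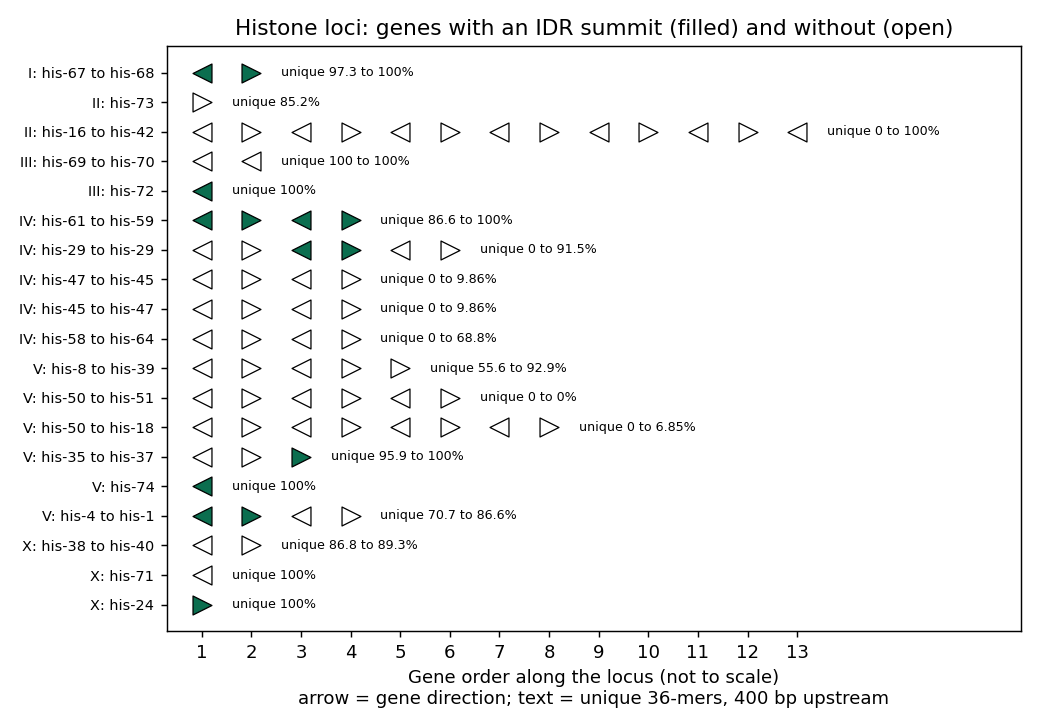
The 72 histone genes in 19 loci (rows, named by chromosome and by the first and last gene), each gene an arrow in its order along the locus, filled where it had an IDR summit; the text gives the lowest and highest share of 36-mers found once in the genome in the 400 bp upstream. Filled arrows stand in 5 of the 14 clusters and at 3 of the 5 solitary genes.

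Copied sequence differed between the groups as well, and its part in the result was not tested. Much of the histone clusters is repeated almost letter for letter, and how reads that match several places were treated is not given in the sources used here. In the promoter window, the share of runs of 36 bases (36-mers) that occur once in the genome had a median of 19.4% for clustered genes (0.00% to 100%) and 100% for solitary genes (85.4% to 100%). For the 14 genes with a summit it ranged from 65.5% at *his-4* to 100%, with a median of 87.3%. For the 58 without a summit the median was 9.79%, and 20 had no such 36-mer at all.

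With members divided at 50% of 36-mers, a division set after the values were seen, 14 of the 29 genes above had a summit (48.3%). These rested on 9 peaks, and 10 of the 14 genes lay in head-to-head pairs. Of the 43 genes below, 0 had a summit. Over all nuclear protein-coding genes the corresponding shares were 12.9% and 1.03%, the latter being 6 of 580 genes. For all protein-coding genes with a head-to-head neighbour within 1000 bp, whatever their copied sequence, the share was 35.2%. All 43 members below the division lie in head-to-head pairs, so the 16.1% of paired members is held down by genes without a summit there. Among clustered genes above the division, 11 of 24 had a summit (45.8%), on 6 peaks, against 3 of 5 solitary genes. All 43 genes below it were clustered, and 37 of them had no summit in any of the 4 lists. Over all nuclear genes below it, a summit was found for 5.86% in the pooled list, 7.24% in replicate 1 and 6.21% in replicate 2. Over all nuclear genes above it the shares were 41.3%, 44.3% and 43.9%, so most windows held none on either side. For 31 intervals between head-to-head genes there were 21 different sequences, and 16 intervals had an identical copy elsewhere among them. None of these 16 had a summit.

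**Figure D4:**
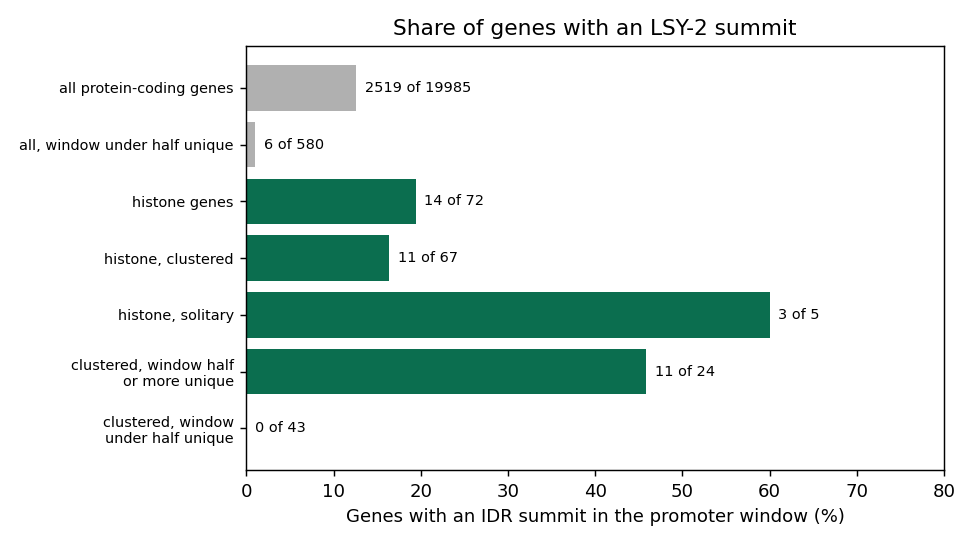
Share of genes with an IDR summit in the promoter window (bars from 0, in percent, with the counts) for all protein-coding genes, for all genes with fewer than 50% of 36-mers found once in the genome, and for groups of histone genes. Clustered histone genes stand at 16.4%, at 45.8% above the division at 50% and at 0 of 43 below it.

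The members were also sorted by the box and the copied sequence together. Of the 29 members above 50%, 14 had a match of the box within 400 bp upstream, and 12 of these had a summit. The other 2 were the head-to-head pair *his-5* (H4) and *his-6* (H3). Their unique shares over the whole window were 54.3% and 59.2%, below that of any gene with a summit. In the 400 bp upstream the order differed, with 74.5% at *his-5* and 55.6% at *his-6*, against 70.7% at *his-3*, which had a summit. *his-5* and *his-6* shared a summit of rank 6386 in replicate 1 (signal 10.5) and 5230 in replicate 2 (signal 10.6). Both replicates thus listed it, but far down in lists of 30000 entries, and the pooled list had no summit in this interval. Of the 15 members above 50% without a match, 2 had a summit, *his-72* and *his-74*. Below 50%, 16 of 43 members had a match and none had a summit. The division at 50% and the box were both set after the values were seen.

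Some pairs without a summit lacked the box by a single base. The interval between *his-2* and *his-1* is 236 bp long and 89.9% identical to that between *his-6* and *his-5*, counted over 237 aligned columns. Both are shown whole because they differ in the box, at chrV:8534978-8535213 and chrV:16042284-16042519 on the plus strand, with the best match in capitals.
his-6/his-5: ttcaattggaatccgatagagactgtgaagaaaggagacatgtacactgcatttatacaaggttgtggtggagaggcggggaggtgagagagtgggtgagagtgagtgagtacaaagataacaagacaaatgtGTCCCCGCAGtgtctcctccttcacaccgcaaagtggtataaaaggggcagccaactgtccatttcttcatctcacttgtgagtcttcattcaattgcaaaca
his-2/his-1: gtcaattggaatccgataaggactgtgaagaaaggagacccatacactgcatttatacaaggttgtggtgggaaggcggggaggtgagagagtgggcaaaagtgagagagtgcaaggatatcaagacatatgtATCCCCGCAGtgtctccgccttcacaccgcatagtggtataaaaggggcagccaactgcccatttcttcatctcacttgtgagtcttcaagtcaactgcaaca

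Counted from 1 at the 5' end of the box, the *his-2* and *his-1* interval has the substitution G1A. The interval of *his-63* (H3) and *his-64* (H4) has C5T, and that of *his-14* (H4) and *his-9* (H3) has G7A, the latter in 3 identical copies. Of 26 intervals without a summit, 9 had a full match, 15 had 1 mismatch and 2 had 3 mismatches. The 5 intervals with a summit all had a full match, but the box was chosen from peaks that include theirs. Nor are the intervals separate cases, since all 31 hold 21 different sequences. Most intervals with 1 mismatch also had few unique 36-mers, so the base change and copied sequence cannot be told apart there. The 2 with 3 mismatches were those of *his-35* and *his-41* and of *his-38* (H4) and *his-40* (H3). The latter pair had 86.8% and 89.3% of unique 36-mers in the 400 bp upstream and no summit in any list.

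**Figure D5:**
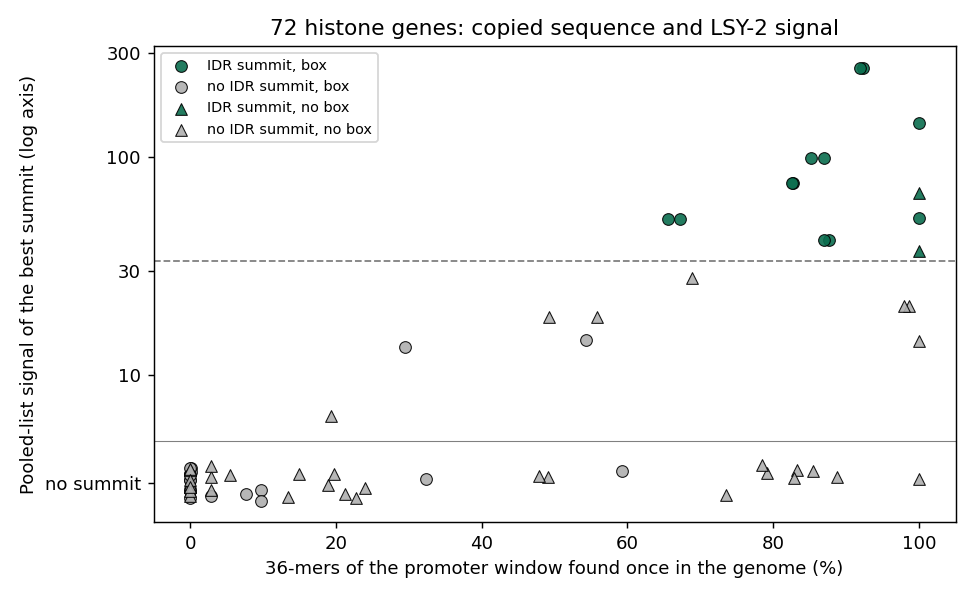
The 72 histone genes by the share of 36-mers in the promoter window found once in the genome (percent) and by the signal of the best pooled-list summit in that window (log axis; the dashed line is the lowest IDR signal, 33.4; genes with no pooled summit lie at the bottom, with random vertical spread), in green where an IDR summit was found and as circles where the box was. All green points lie at 65.5% or more, as do 12 genes without an IDR summit.

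Of the 58 members without an IDR summit, 9 had a summit in the pooled list. Of all 72 members, 49 had no pooled summit. Over all nuclear protein-coding genes 40.3% had one, and 5.86% of those with fewer than 50% of unique 36-mers in the window. These 2 shares include genes with an IDR summit, so they are not matched to the 58 members. The highest signals were at *his-42* (H3), with 28.0 (rank 3166), at *his-35* and *his-41*, with 20.8 (rank 4637), and at *his-63* and *his-64*, with 18.5 (rank 5518). *his-42* ranked 3400 in replicate 1 and 2566 in replicate 2, just inside the top 2568 of the latter, and had no match of the box. The lowest signal in the IDR list was 33.4, above the signals of these members. That value is not the authors' threshold, which is set on the IDR and is not given.

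Other sequence features were counted as well. Unlike the box they were not chosen from the histone peaks, so their counts cannot be ranked against those of the box. A TATAAA match within 400 bp upstream was found at 54 of 72 histone genes, against 47.3% of all nuclear protein-coding genes, and at 10 of the 14 with a summit. The E-box CACGTG was found at 1 histone gene (1.39%), *his-72*, against 7.22% of all. A 3' stem-loop, searched as 2 complementary arms of 6 bases beginning with GG around a loop of 4 within 100 bp after the stop codon, was found at 57 members and at 0.345% of all genes. Of the 57, 9 had a summit, and of the 15 without a stem-loop, 5 had one, namely *his-24*, *his-37*, *his-68*, *his-72* and *his-74*. Over all protein-coding genes the share with a summit was 12.6%. The groups with and without a stem-loop are not matched in copied sequence. Of the 57, 40 lay below the division at 50% of unique 36-mers, where no member had a summit. Of the 29 members above it, 17 had a stem-loop, and 9 of these had a summit. The 5 with a summit but no stem-loop were among the other members above it.

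Histone genes that carry other names gave a summit at 4 of 11 members (36.4%, against the 12.6% of all protein-coding genes). The strongest by far was at *htz-1*, which encodes the variant H2A.Z, with a signal of 1579 and rank 31 in the IDR list, 37 in replicate 1 and 31 in replicate 2. That summit also lay in the window of *wapl-1*. The others were *hil-7* and *hil-3*, linker histone genes, at ranks 666 and 2292, and *hcp-3*, which encodes the centromeric H3 variant, at rank 1402. The *hcp-3* peak ranked 5083 in replicate 1 and 719 in replicate 2. None of these 4 genes had the box within 400 bp upstream. The other members, *cpar-1*, *hil-1*, *hil-2*, *hil-4*, *hil-5*, *hil-6* and *hil-8*, had no IDR summit.

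Histone chaperones and histone mRNA processing genes had a summit at 11 of 18 members (61.1%, against the 12.6% of all protein-coding genes). Among chaperones, *lin-53*, a binding protein of histones H3 and H4, had the peak of rank 8, shared with *nra-2*. The FACT subunit gene *hmg-4* had rank 156 and its relative *hmg-3* rank 1912. The NASP homologues *nasp-1* and *nasp-2* had ranks 267 and 1002, the latter near the upstream edge of the window. The nucleosome assembly gene *nap-1* had rank 663, the CAF-1 subunit gene *chaf-2* rank 755, the Asf1 homologue *unc-85* rank 862 and *hira-1* rank 1492. Of mRNA processing genes, *symk-1* (symplekin) had rank 1671 and *cdl-1*, which encodes the stem-loop binding protein of histone mRNAs, had rank 1995. Summits also lay in the windows of other genes at *chaf-2*, *hmg-4*, *nap-1*, *nasp-2* and *symk-1*. The *cdl-1* peak ranked 1134 in replicate 1 and 8466 in replicate 2. *asfl-1*, *chaf-1*, *cpsf-2*, *cpsf-3*, *emb-5*, *rba-1* and *spt-16* had none, and none of the 18 had the box.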

How the data were processed

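Summits were read from 4 deposited lists on ce11, namely a list for each replicate, a pooled list and the IDR list. The deposited notes say that the IDR list was derived from the other 3, which hold 30000 entries each. The pooled list is labelled as peaks and background for input to IDR. Low-ranked entries outside the IDR list may thus be background. The authors deposited a signal value for each peak. For the 14 members with a summit it was the same in the IDR and pooled lists. The replicate lists have scales of their own, so signal served for ranks and description. The deposited lists also hold a −log10 q-value, not used here, and the summit offset in bp. Neither the aligner, the peak caller and their versions nor the read length and IDR threshold were given in the sources used here. Read depth is unknown, no control sample was used, and the lists on the ce10 build were not used here.

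Genes came from Ensembl release 115 for WBcel235 and sequence from the RefSeq copy of that assembly. All peaks ended within its chromosomes. Summits were assigned to windows of 1000 bp upstream to 300 bp downstream of the 5' ends of all protein-coding transcripts. Histone classes were RefSeq product names, in place of a comparison of protein sequences. A 36-mer was called unique when it occurred once in the genome on either strand. The box came from the histone peaks themselves. Assignment to windows was tested on simulated data. Members, lists and the box were chosen with earlier results of these data known. Genes were named by rule: every member with a summit, every solitary member, 5 further members by pooled signal, and list genes with a summit. Others, such as *his-1*, *his-2*, *his-5*, *his-6*, *his-38* and *his-40*, were named after their values were seen. Counts are given with no test, beside the share over all protein-coding genes. Alternatives changed the peaks, window, position, 5' ends and cluster distance. Python 3.11.15, numpy 2.4.6, pandas 2.3.3, Biopython 1.88 and matplotlib 3.10.9 were used.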

Additional observations from a re-analysis of the deposited data

How the results depend on the processing

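No paired analysis was possible because there is 1 group and no test. With the 1284 IDR peaks of highest signal, 8 histone genes had a summit (11.1%, against 7.35% of all protein-coding genes), 7 clustered and 1 solitary, on 5 peaks. *his-3*, *his-4*, *his-24*, *his-59*, *his-60* and *his-72* were lost, and the setting itself removes the weaker peaks. Leaving out a replicate gave 12 to 15 genes, 9 to 12 clustered genes, 3 solitary genes and 8 to 10 peaks. The share of members was 20.8% without replicate 1, against 12.4% of all protein-coding genes. It was 16.7% without replicate 2, against 12.2%. Without replicate 2, *his-3* and *his-4* were no longer counted, their summit ranking 3254 in replicate 1, outside the top 2568. Without replicate 1, *his-42* was gained, its summit ranking 2566 in replicate 2. All other settings tried left each count within 1.5 times. The shorter window, peak midpoints, outermost 5' ends and cluster distances of 2 or 10 kb changed no count. The wider window gave 18 genes (25.0%, against 15.9% of all), and the top 5136 pooled peaks gave 17 (23.6%, against 18.1%). Without summits in soft-masked sequence, a setting chosen after seeing the data, *his-74* was lost and 13 genes were left. Searching 250 or 1000 bp upstream for the box gave the same 30 histone genes by number, 12 with a summit. Read depth is unknown, so the absence of a summit is no measure of absent binding.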
